A study of Mus musculus with 3 samples.

Results

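Heat shock chaperones help newly made and damaged proteins to fold, and their transcripts were followed here in T cells taken from mouse tumours. The group held 10 genes of the 32285 counted, chosen by name: Hspa1a, Hspa1b, Hspa8, Hsph1, Hsp90aa1, Hsp90ab1, Dnaja1, Dnajb1, Hspd1 and Hspe1, and all 10 were found in the files. Transcripts were counted in single cells sorted for CD3, the T cell receptor's signalling complex, from tumours of MC38, a colon carcinoma line of the mouse. The tumours were collected at day 15, following 5 days of treatment, and gave 3 libraries. Each group, PBS (the buffer control), mix and homo, is a single library. The labels do not say what mix or homo contained, nor the strain, sex or age of the mice or how many were pooled, and the series title names an interleukin-2 that is aimed at LAG3, a receptor that restrains T cells.

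The HSP70 proteins bind exposed stretches of unfolded protein, DNAJ proteins deliver clients to them and trigger their ATP use, and HSP110 swaps their nucleotide. HSP90 takes over clients such as kinases and receptors at a later stage of folding, and HSP60 with its lid HSP10 forms a folding chamber inside mitochondria. Part of the family is present in every cell, while Hspa1a and Hspa1b are switched on by the transcription factor HSF1 when proteins misfold, and also by handling such as tissue digestion. HSF1 binds heat shock elements, runs of inverted GAA units.

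Promoter sequences are shown because Hspa1a and Hspa1b moved together and are near copies. RefSeq windows on GRCm38.p6 were matched for 7 of the 10 genes. The 250 bases before the start of Hspa1a (chr17:34972157-34972406, minus strand) and of Hspa1b (chr17:34959239-34959488, minus strand) overlapped no annotated exon and were identical at 98.8% of positions, with 3 bases different. Capitals mark GAANNTTC, a pair of inverted GAA units. Its first base lay 104 bases before the start in both.
Hspa1a: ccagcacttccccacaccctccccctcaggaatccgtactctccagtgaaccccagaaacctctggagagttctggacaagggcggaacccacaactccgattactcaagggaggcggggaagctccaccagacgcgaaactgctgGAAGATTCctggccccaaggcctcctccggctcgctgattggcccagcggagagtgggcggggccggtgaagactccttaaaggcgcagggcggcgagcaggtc
Hspa1b: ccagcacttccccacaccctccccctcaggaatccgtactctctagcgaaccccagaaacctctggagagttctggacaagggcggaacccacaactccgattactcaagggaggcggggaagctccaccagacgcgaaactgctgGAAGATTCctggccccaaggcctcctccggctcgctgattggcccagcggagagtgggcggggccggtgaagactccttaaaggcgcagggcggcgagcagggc

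Short sites of 30 bases are shown for other members whose windows held such a pair, with GAANNTTC or TTCNNGAA in capitals. Both motifs read the same on either strand. The Hspd1 and Hspe1 genes lie head to head, and 1 site, shown on the strand of Hspe1, lay in the windows of both. There the capitals cover 3 overlapping pairs. The sites overlap GENCODE M21 exons, with 26 of 30 bases for Hsph1 and all 30 for the others.
Hspe1 and Hspd1 (chr1:55088053-55088082, plus strand): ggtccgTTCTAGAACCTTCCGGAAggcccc
Hsph1 (chr5:149636351-149636380, minus strand): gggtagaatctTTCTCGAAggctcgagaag
Dnaja1 (chr4:40722333-40722362, plus strand): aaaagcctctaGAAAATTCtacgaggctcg
A pair of either kind was found in 12.8% of all 32851 promoter windows of this length. The 3-unit runs GAANNTTCNNGAA and TTCNNGAANNTTC, both present at the shared Hspd1 and Hspe1 site, were found in 0.247% and 0.244% of windows, and each is the reverse complement of the other. Some genes had more than 1 window, for different starts. No pair was found in the windows of Dnajb1, nor in the other windows of Hspd1 and Dnaja1.

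The libraries held 8461 to 10351 barcodes with medians of 4748 to 6582 UMIs, the highest in homo, and 7303 to 9214 cells were kept. Barcodes at 10% or more mitochondrial UMIs were 4.07% of homo, 0.251% of PBS and 0.307% of mix. Between 100 and 131 barcodes were shared by each pair of libraries. T cells were split by transcripts into a CD8 gate, with a CD8 gene and no Cd4 or Foxp3, a CD4 gate, with Cd4 and neither of the others, and a Foxp3 gate, with the regulatory T cell factor Foxp3 and no CD8 gene. Each gate also required a UMI of Cd3d, Cd3e or Cd3g. The 6 T cell markers, which include these genes, were detected in every gate of every library. In the order PBS, mix, homo, the CD8 gate held 7127, 5570 and 6517 cells, the CD4 gate 315, 309 and 70, and the Foxp3 gate 843, 810 and 124. Levels are UMIs of a gene scaled by all UMIs of the gate (CPM). The 3′ kit counts each molecule once whatever its length. A single library per group allows no test; intervals are 95% and cover counting error only, and they are too narrow where a few cells hold many UMIs.

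In CD8 gate cells the inducible HSP70 genes and Dnajb1 were lower in homo than in PBS, and all 10 chaperones lay below a ratio of 1. Genes counted as apart differed by at least 1.5-fold with at least 50 CPM in either library. By that rule 3 of the 10 chaperones were lower in homo and 0 higher, where 4.67% of the 3019 genes compared were lower and 3.08% higher. The same 3 were lower at a 2-fold limit, where 1.49% of genes were. The median log2 ratio of the chaperones was -0.36, and that of all genes was -0.05. Each of the 10 stayed below 0 in all 14 other ways of scaling or choosing cells. Without cells that held a UMI of Fos, Jun or Egr1, an alternative chosen after seeing the data, 3 were again lower, but with Hsph1 in place of Hspa1a, whose ratio of -1.52 rested on levels under 50 CPM. That Hspa1a and Hspa1b were low in homo was known when the genes were chosen.

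Hspa1a, an inducible cytosolic HSP70, stood at 125 CPM in PBS, 135 CPM in mix and 37.3 CPM in homo, in CD8 gate cells. Its level was 3.35-fold lower in homo than in PBS (log2 ratio -1.74, interval -1.82 to -1.67). Hspa1b, its near copy, stood at 169 CPM in PBS, 180 CPM in mix and 43.6 CPM in homo, 3.89-fold lower in homo than in PBS (-1.96, -2.03 to -1.89). For both genes the PBS and mix libraries lay close together and the homo library lay far below. In GENCODE M21, 58.8% of the 50-base words of the Hspa1a transcript also occur in Hspa1b, and 0% of those in its last 500 bases, the end that the 3′ kit reads; which annotation the counting used is not given in the sources used here. The sum of both genes, which does not depend on how counted UMIs were divided between them, was 294 CPM in PBS, 315 CPM in mix and 80.9 CPM in homo. It would still miss any reads left uncounted because they fit both genes.

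Hspa8, the HSP70 made in every cell, stood at 2730.1 CPM in PBS, 2850.05 CPM in mix and 2179.5 CPM in homo, a log2 ratio of homo over PBS of -0.32 (-0.34 to -0.31). Unlike its inducible relatives it was not 1.5-fold apart. Hsph1, the HSP110 that exchanges nucleotide on HSP70, stood at 142 CPM in PBS, 169 CPM in mix and 96.2 CPM in homo. Its log2 ratio of homo over PBS was -0.56 (-0.62 to -0.51), a 1.48-fold difference just inside the limit. Its ratio lay past the limit in 5 of 14 other settings, from -0.62 with the mean of per-cell CPM to -0.89 without cells that held a UMI of Fos, Jun or Egr1.

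Dnajb1, a DNAJ partner of HSP70 that is itself heat-inducible, stood at 200.4 CPM in PBS, 195 CPM in mix and 92.1 CPM in homo. It was 2.18-fold lower in homo than in PBS (log2 ratio -1.12, -1.17 to -1.07), with PBS and mix again close together. Dnaja1, another cytosolic DNAJ partner, stood at 369 CPM in PBS, 422 CPM in mix and 291 CPM in homo (-0.34, -0.38 to -0.31). The counting intervals of the Dnajb1 and Dnaja1 ratios did not overlap.

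Hsp90aa1, the more inducible cytosolic HSP90, stood at 485 CPM in PBS, 573 CPM in mix and 378 CPM in homo (log2 ratio of homo over PBS -0.36, -0.39 to -0.33). Hsp90ab1, the HSP90 present in most cells, stood at 1933 CPM in PBS, 2058 CPM in mix and 1709.9 CPM in homo (-0.18, -0.19 to -0.16), the ratio nearest 0 among the 10. In mitochondria, the HSP60 gene Hspd1 stood at 133 CPM in PBS, 149 CPM in mix and 103 CPM in homo (-0.36, -0.42 to -0.31). The HSP10 gene Hspe1 stood at 282 CPM in PBS, 311 CPM in mix and 227 CPM in homo (-0.31, -0.35 to -0.27). These HSP90 and mitochondrial members were highest in mix and lowest in homo, with steps under 1.5-fold between homo and PBS.

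**Figure D1:**
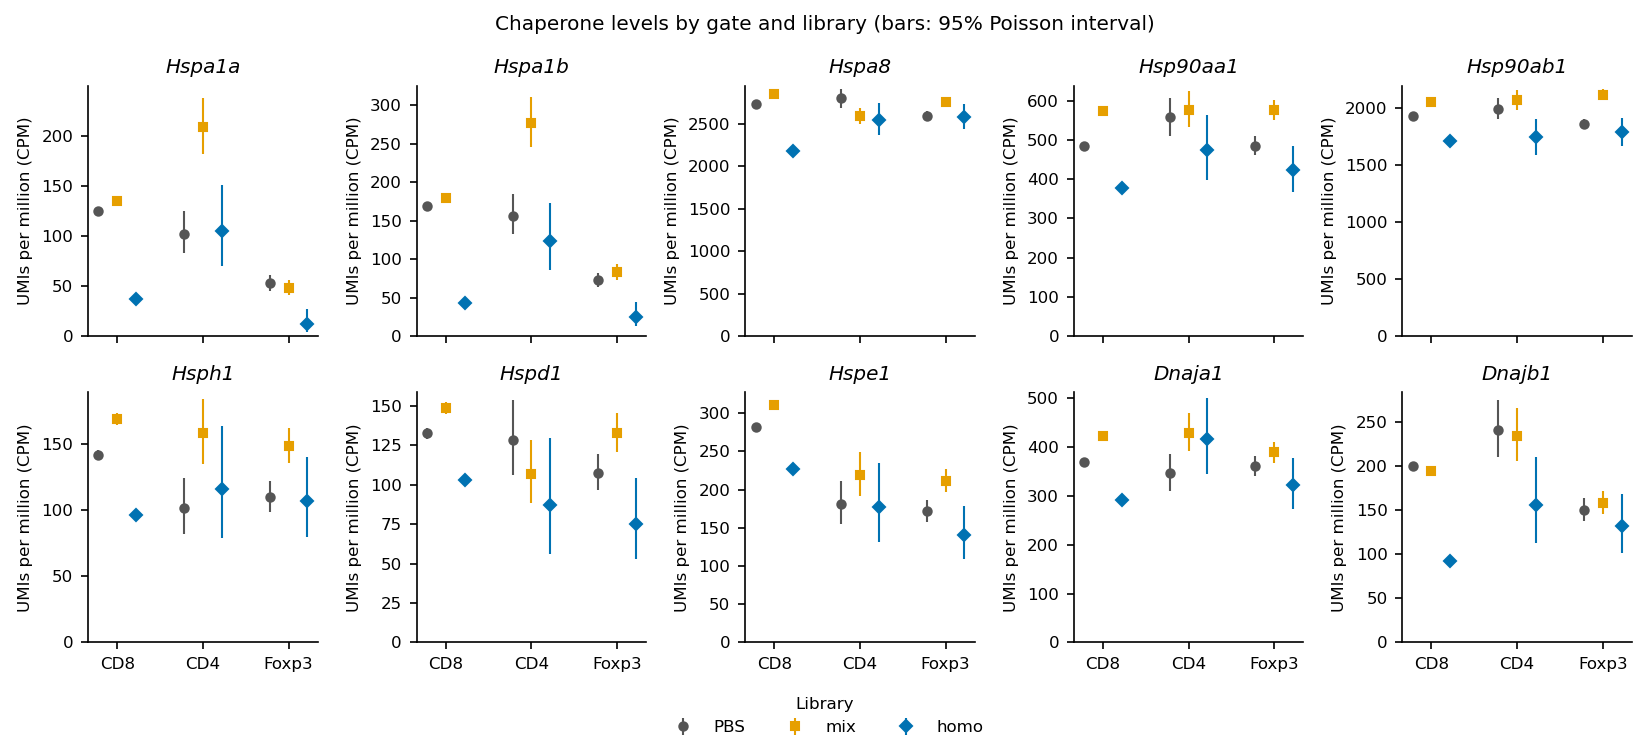
Level of each chaperone in CPM (vertical axis from 0, own scale per gene) in the CD8, CD4 and Foxp3 gates of the PBS, mix and homo libraries; bars are 95% Poisson intervals for counting error. In the CD8 gate the homo point is the lowest of the 3 libraries for each of the 10 genes, and Hspa1a stands there at 37.3 against 125 and 135 CPM.

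Between mix and PBS, the chaperones of CD8 gate cells differed little. By the 1.5-fold rule 0 of 10 were apart, where 0.916% of 2946 genes were apart in either direction. Log2 ratios ran from -0.04 for Dnajb1 to 0.25 for Hsph1, with a median of 0.13, and all genes had a median of -0.01. The Hsp90aa1 ratio was 0.24 (0.21 to 0.27) and the Hspa1a ratio 0.11 (0.06 to 0.17). The sign for Dnajb1 was negative in 13 of 14 other settings.

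Between homo and mix, 5 of 10 chaperones of CD8 gate cells were lower in homo and 0 higher, where 4.69% of 3008 genes were lower. These were Hspa1b with a log2 ratio of -2.05, Hspa1a with -1.86, Dnajb1 with -1.08, Hsph1 with -0.81 and Hsp90aa1 with -0.60. The other 5 lay between -0.54 for Dnaja1 and -0.27 for Hsp90ab1, and the median of the 10 was -0.57. This comparison shares its homo library with that against PBS. At a 2-fold limit 3 of the 10 were lower in homo than in mix, where 1.46% of all genes were.

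**Figure D2:**
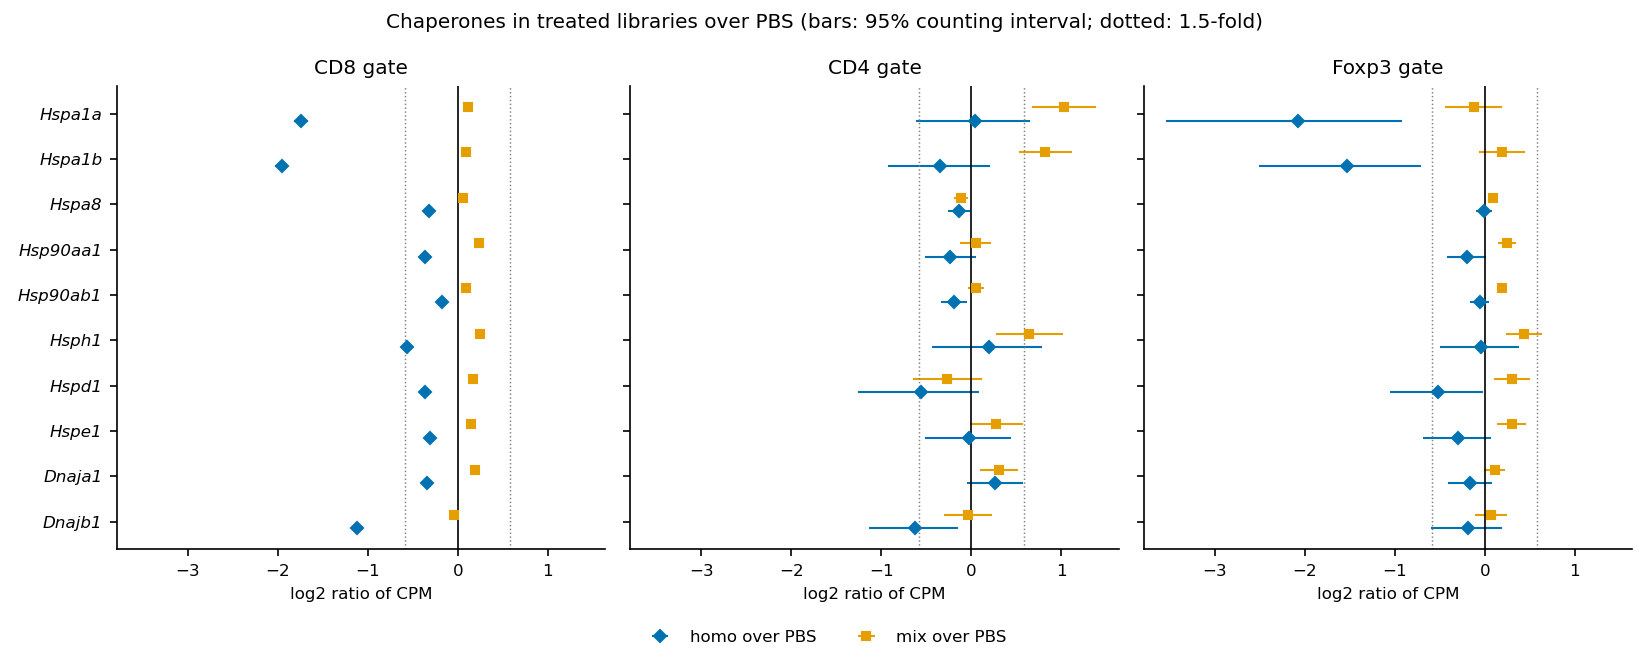
Log2 ratio of CPM (horizontal axis, 0 means equal) for each chaperone in homo over PBS and in mix over PBS, 1 panel per gate; bars are 95% counting intervals, dotted lines mark 1.5-fold, and both comparisons share the PBS library. In the CD8 gate the homo points all lie left of 0, down to -1.96 for Hspa1b, while the mix points lie between -0.04 and 0.25.

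In the few CD4 gate cells, Hspa1a and Hspa1b were higher in mix than in PBS. Hspa1a stood at 102 CPM in PBS, 209 CPM in mix and 105 CPM in homo, from 95, 223 and 29 UMIs. Hspa1b stood at 156 CPM in PBS, 276 CPM in mix and 123 CPM in homo. Here the mix library stood above the others, and the homo library was near PBS when all UMIs were counted. With each cell cut to the same number of UMIs, both genes were lower in homo than in PBS. Hspa1a stood there at 88.7 CPM in 62 homo cells and 125 CPM in 244 PBS cells, and Hspa1b at 64.5 and 166 CPM. The share of cells with a UMI of either gene was 14.5% and 20.5%, with overlapping intervals. The Hspa1b log2 ratio of homo over PBS ran from -1.36 to 0.98 over 13 other settings.

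By the 1.5-fold rule, 3 of 10 chaperones were higher in mix than in PBS in the CD4 gate, where 2.33% of genes were higher. Their log2 ratios were 1.03 for Hspa1a (0.68 to 1.39), 0.82 for Hspa1b (0.53 to 1.12) and 0.64 for Hsph1 (0.27 to 1.02). Without cells that held a UMI of Fos, Jun or Egr1, 106 cells were left in mix and 114 in PBS. There 1 of the 10 was higher, Hspa1b at 0.87, with no share of all genes given, and Hspa1a was at 0.37. In homo over PBS 1 of 10 was lower, Dnajb1 at 156 against 241 CPM (-0.63, -1.13 to -0.15), where 13.2% of genes were lower. In homo over mix 3 of 10 were lower, the HSP70 genes Hspa1b (-1.16) and Hspa1a (-0.99) with Dnajb1 (-0.59), where 11.6% of genes were lower. At a 2-fold limit Hspa1a was higher in mix than in PBS (0.285% of genes), Hspa1b was lower in homo than in mix (4.27%), and 0 of 10 were lower in homo than in PBS (4.95%).

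The CD4 gate of homo held 63 UMIs of Hspa1a and Hspa1b, in 14 of 70 cells, and 1 cell held 20 of them, 31.7%. That of mix held 518 in 104 of 309 cells, with 51 in 1 cell and 26.6% in the top 5 cells. That of PBS held 240 in 71 of 315 cells, with 19 in 1 cell and 33.3% in the top 5 cells. Markers of other cells moved with library in this gate. The 5 dendritic cell markers summed to 261 CPM in PBS, 45.9 CPM in mix and 7.25 CPM in homo. Clec9a and Cd209a were at 0 in PBS, and Xcr1 and Cd209a in mix. In homo Flt3, Xcr1, Clec9a and Cd209a were at 0, so its value came from the MHC class II gene H2-Ab1 alone. The 4 NK markers summed to 164, 42.2 and 7.25 CPM, with Ncr1 at 0 in mix and in homo and Klrb1c at 0 in homo. The 6 macrophage markers summed to 20.5 CPM in PBS, 2.81 CPM in mix and 0 in homo. Endothelial markers went the other way, at 55.0 CPM in PBS, 60.0 CPM in mix and 105 CPM in homo, with Cdh5 and Kdr at 0 in homo. Tumour epithelial markers were also highest in homo, at 10.8, 13.1 and 14.5 CPM, with Krt8 and Krt19 at 0 in each library. Krt18 was at 0 in homo too, so its value came from Epcam alone. The part of such cells in the chaperone values was not tested.

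In Foxp3 gate cells, Hspa1a stood at 52.8 CPM in PBS, 48.5 CPM in mix and 12.5 CPM in homo, the last from 6 UMIs. Hspa1b stood at 72.7 CPM in PBS, 82.9 CPM in mix and 25.1 CPM in homo, the last from 12 UMIs. As in the CD8 gate, PBS and mix lay together and homo lay lower. By the 1.5-fold rule 2 of 10 chaperones were lower in homo than in PBS, Hspa1a (log2 ratio -2.07, -3.54 to -0.92) and Hspa1b (-1.53, -2.51 to -0.70), where 7.36% of genes were lower. The 18 UMIs of both genes in homo lay in 8 of 124 cells, with 7 in 1 cell. Without cells with a Fos, Jun or Egr1 UMI, 45 cells were left in homo and 270 in PBS. There 1 of the 10 was lower, Hspd1 at -0.82, with no share of all genes given. Hspa1b was at -0.77 with under 50 CPM in both libraries, and Hspa1a had 0 UMIs in homo.

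Macrophage, dendritic cell and NK markers were also lower in the Foxp3 gate of homo than of PBS, while B cell and endothelial markers were highest in homo, at 14.6 and 58.6 CPM against 7.21 and 39.6 CPM in PBS. The 6 macrophage markers summed to 30.9 CPM in PBS, 31.4 CPM in mix and 0 in homo, with Adgre1 at 0 in each library. The 5 dendritic cell markers summed to 34.5, 75.5 and 8.37 CPM and the 4 NK markers to 34.8, 13.8 and 2.09 CPM, with Cd209a, Ncr1 and Eomes at 0 in each library. In homo 1 marker in each of the dendritic cell, NK, B cell and endothelial lists was above 0. Without barcodes that held a macrophage UMI Hspa1a and Hspa1b were again the 2 chaperones lower in homo than in PBS, with Hspa1b at -1.57. The part of dendritic and NK cells was not tested.

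Dnajb1, lower in the CD8 gate of homo, stood in the Foxp3 gate at 150.4 CPM in PBS, 158 CPM in mix and 132 CPM in homo, with a log2 ratio of homo over PBS of -0.19 (-0.59 to 0.19). Hspa8 was at 2587, 2750.3 and 2577 CPM. In mix over PBS 0 of 10 chaperones were apart in this gate, where 0.763% of genes were. Leaving out cells with a Fos, Jun or Egr1 UMI left 243 cells in mix and 270 in PBS, and there 3 were higher. The share of all genes in that setting is not given, so this count cannot be set against it. In homo over mix 9 of the 10 had enough counts to be compared and 3 were lower, Hspa1b (-1.72), Hspd1 (-0.82) and Hspe1 (-0.59), where 6.62% of genes were lower, and at 2-fold Hspa1b alone among the 9 was lower, where 1.91% of genes were. Hspa1a, at 48.5 against 12.5 CPM, missed the 50 CPM minimum there. No difference between gates in these ratios was tested.

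Within each library, Foxp3 gate cells held less Hspa1a plus Hspa1b than CD8 gate cells. The log2 ratio of the Foxp3 over the CD8 gate was -1.23 in the PBS library (-1.37 to -1.09), -1.26 in the mix library (-1.40 to -1.13) and -1.10 for homo (-1.86 to -0.44), so it was below 0 in 3 of 3 libraries. Genes at least 1.5-fold lower in the Foxp3 gate made up 9.53%, 9.6% and 10% of those compared. Hspe1 was lower in that gate than in the CD8 gate too, at -0.71 in PBS, -0.56 in mix (under 1.5-fold) and -0.70 in homo. In the CD4 over the CD8 gate Hspe1 was also below 0, at -0.64 in PBS, -0.50 in mix and -0.35 in homo (-0.79 to 0.05). For CD4 over CD8 gate cells the ratio of Hspa1a plus Hspa1b was -0.18 in PBS, 0.62 in mix and 1.5 for homo, so its sign differed between libraries. With each cell cut to the same number of UMIs, the 2 homo levels lay nearer each other. They were then 153 CPM in 62 CD4 gate cells and 92.0 CPM in 6114 CD8 gate cells. In the order of the 9 levels of this sum, mix CD4 cells were highest at 485 CPM and homo Foxp3 cells lowest at 37.6 CPM. Counting intervals overlapped between neighbours for PBS CD8 (289 to 300 CPM) and PBS CD4 cells (227 to 294), for PBS CD4 and homo CD4 cells (176 to 292), and for mix (119 to 144) and PBS Foxp3 cells (114 to 138).

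The lower Hspa1a and Hspa1b level of homo came with both fewer positive cells and fewer UMIs in each. A lower mean can by itself lower both, so they are not separate results. CD8 gate cells were thinned to 2000 UMIs, which left out 335 (PBS), 301 (mix) and 403 (homo) shallower cells. A UMI of either gene was found in 22.3% of thinned PBS cells (Clopper-Pearson interval 21.3 to 23.3), 21.4% of those of mix (20.3 to 22.5) and 10.7% of those of homo (9.98 to 11.5). Unthinned, the shares were 29.4%, 29.7% and 19.8%. No cell type here is known to lack these genes, so no background share from free RNA is given.

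Positive thinned cells held on average 3.09 UMIs of the pair in PBS, 3.47 in mix and 1.71 in homo. Of all thinned cells, 4.27% in the PBS library held 5 or more, against 4.46% for mix and 0.458% for homo, and cells with 10 or more were 0.913%, 1.33% and 0.0327%, the last from 2 cells. The homo library thus lay further below PBS at 5 or more UMIs than at 1 or more. A lower mean of such unevenly spread counts can by itself lower this tail and the variance over the mean. The variance over the mean of these counts was 6.34 in PBS, 8.39 in mix and 2.56 in homo, where 1 would be Poisson scatter. Hspa8, by contrast, had a UMI in 98.2%, 98.4% and 97.1% of thinned cells, with ratios of 1.87, 1.97 and 1.45. Dnajb1 had a UMI in 29.9% of PBS cells, 29.0% of mix cells and 16.8% of homo cells.

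**Figure D3:**
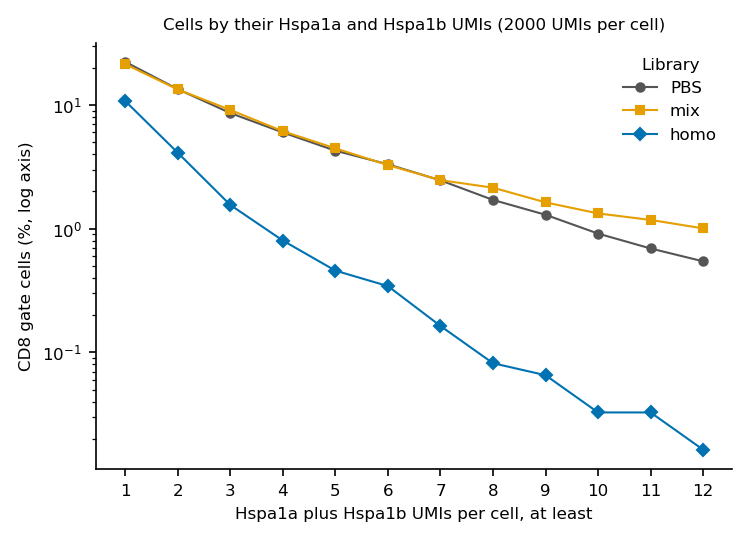
Share of CD8 gate cells (percent, logarithmic axis) with at least the number of Hspa1a plus Hspa1b UMIs on the horizontal axis, in cells thinned to 2000 UMIs, for each library. The PBS and mix curves run together from 22.3% and 21.4% at 1 UMI, and the homo curve starts at 10.7% and reaches 0.458% at 5 UMIs.

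In each of 4 CD8 states Hspa1a plus Hspa1b was lower in homo than in PBS. States were read on thinned counts, as cycling cells with Mki67 or Top2a, then cells with Tcf7, a factor of stem-like T cells, then cells with Havcr2, the receptor TIM-3, then the rest. Cycling cells held 249 CPM of Hspa1a plus Hspa1b in PBS, 286 CPM in mix and 75.3 CPM in homo. Tcf7 cells held 320 CPM in PBS, 455 CPM in mix and 105 CPM in homo. The level was 3.31-fold lower in homo than in PBS in cycling cells, 3.06-fold in Tcf7 cells, 3.13-fold in Havcr2 cells and 4.06-fold in the rest. The cycling share of thinned CD8 gate cells was 11.4% for PBS, 11.6% for mix and 15.1% for homo.

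Dnajb1 too was lowest in homo in each of the 4 states. In Tcf7 cells it stood at 271 CPM in PBS, 284 CPM in mix and 127 CPM in homo, and in cycling cells at 186, 187 and 97.5 CPM. It stood at 186, 173 and 92.7 CPM in Havcr2 cells and at 249, 231 and 95.6 CPM in the rest. In the rest Dnajb1 was lower in mix than in PBS (log2 ratio -0.11, -0.20 to -0.01), while the pair stood at 387 CPM in PBS and 412 CPM in mix. Hspa8 was at 3059 CPM in cycling cells of PBS, 3016 in mix and 2473 in homo.

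Immediate early genes are transcription factors and phosphatases that cells switch on within minutes of stimulation or handling. Among 18 such genes compared in the CD8 gate, 9 were lower in homo than in PBS and 0 higher, where 4.67% of all genes were lower, with a median log2 ratio of -0.58, from -1.77 for the phosphatase Dusp1 to 0.04 for Btg2. In the CD4 gate 9 of 18 were also lower, where 13.2% of genes were, and there Hspa1a was at 0.04 and Hspa1b at -0.34. In the Foxp3 gate 4 of 16 were lower, where 7.36% of genes were. A UMI of Fos, Jun or Egr1 was found in 53.8% of thinned CD8 gate cells of PBS, 52.8% of those of mix and 41.9% of those of homo. Cells without such a UMI held 138 CPM of Hspa1a plus Hspa1b in PBS, 166 CPM in mix and 49.9 CPM in homo. Cells with one held 522, 554 and 150.4 CPM. The pair was 2.76-fold lower in homo than in PBS among the former cells and 3.47-fold lower among the latter.

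Among cells under 2% mitochondrial UMIs, which were 99.7% of thinned CD8 gate cells in PBS and 95.3% in homo, the pair stood at 345 CPM in PBS and 93.7 CPM in homo. The median mitochondrial share of CD8 gate cells was 0.333% in PBS, 0.350% in mix and 0.558% in homo. Macrophage markers summed to 12.4 CPM in the CD8 gate of PBS, 4.16 in mix and 2.36 in homo, with all 6 above 0. The 5 dendritic cell markers summed to 13.1, 9.50 and 2.77 CPM, with Clec9a at 0 in homo. Tumour epithelial markers were also lowest in homo, at 4.38, 4.64 and 1.60 CPM, with Krt8 and Krt19 at 0 in each library. NK markers stood at 43.5, 39.1 and 43.0 CPM. Endothelial markers were highest in homo, at 9.74, 11.6 and 19.2 CPM, with Cdh5 at 0 in PBS and homo. Without barcodes that held a macrophage UMI Hspa1a, Hspa1b and Dnajb1 were again the 3 chaperones lower in homo than in PBS. How the libraries were digested and whether they were handled at the same time is not stated, and with 1 library per group handling and treatment cannot be told apart.

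**Figure D4:**
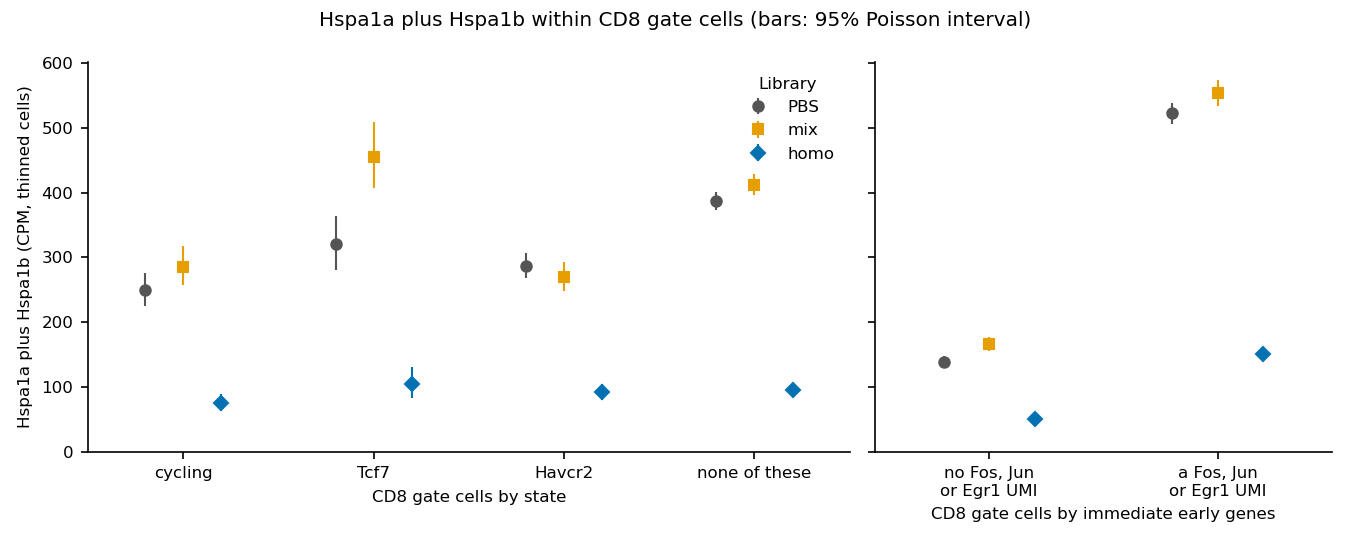
Hspa1a plus Hspa1b in CPM (vertical axis from 0) in thinned CD8 gate cells split by state (left) and by a UMI of Fos, Jun or Egr1 (right), for each library; bars are 95% Poisson intervals. The homo points lie lowest in every split, between 49.9 and 150.4 CPM, and cells with an immediate early UMI are higher in each library.

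Within single libraries, cells rich in Hspa1a and Hspa1b were also rich in part of the other chaperones. Cells with 5 or more UMIs of the pair were set against cells with none, after thinning, as a description over cells of 1 library. Dnajb1 was 5.31-fold higher in such cells in PBS, 5.61-fold in mix and 4.60-fold in homo, the last from 28 cells. Hsph1 was 4.08-, 7.01- and 5.20-fold higher, and Hsp90aa1 3.14-, 3.33- and 3.10-fold. These 3 genes were thus higher in cells rich in the pair in all 3 libraries.

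The other members differed less between the same cells. Hspe1 was 2.31-fold higher in PBS, 2.66-fold in mix and 1.70-fold in homo, and Dnaja1 1.54-, 2.15- and 2.61-fold. Hspa8 was 1.46-, 1.45- and 1.22-fold higher, Hsp90ab1 1.62-, 1.77- and 1.52-fold, and Hspd1 1.37-, 2.15- and 1.32-fold. The immediate early gene Jun was 5.24-, 4.12- and 4.62-fold higher. Actb and Ppia, genes of general cell upkeep, were at 0.829- and 0.829-fold in PBS, 0.834- and 0.816-fold in mix and 0.799- and 0.756-fold in homo.

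**Figure D5:**
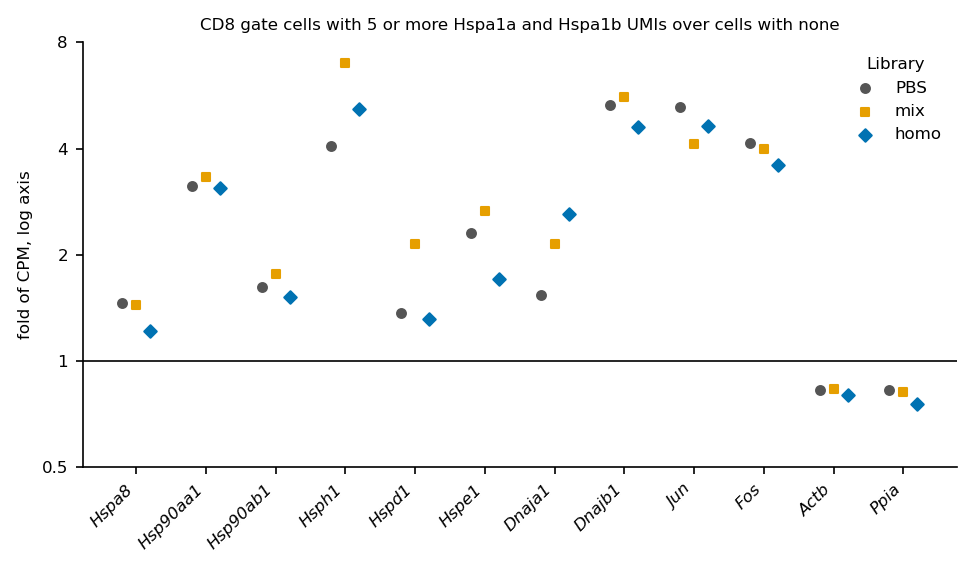
Fold of CPM (vertical, logarithmic axis, 1 means equal) in thinned CD8 gate cells with 5 or more Hspa1a plus Hspa1b UMIs over cells with none, for each other chaperone, Jun, Fos, Actb and Ppia in each library. Dnajb1, Hsph1 and Hsp90aa1 lie between 3.10 and 7.01, Hspa8 between 1.22 and 1.46, and Actb and Ppia below 1.

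Over CD8 gate cells of each library, the genes most like Hspa1a plus Hspa1b were ranked by the lowest of their 3 Pearson correlations of log counts per 10000 UMIs. Among 2604 genes the median was -0.03. Jun led with 0.27, followed by the members Hsp90aa1 (0.25), Hsph1 (0.25) and Dnajb1 (0.22). The 10 highest that are not chaperones of the group included Jun, Fos (0.20), the polyubiquitin gene Ubb (0.15), the ribosomal protein genes Rps27 (0.13), Rps24 (0.10) and Rpl19 (0.10), the phosphatase subunit Ppp1r15a (0.12), Dusp1 (0.10) and the RNA-binding protein gene Zfp36 (0.10). Hspd1, at 0.02, was the member least like the pair. Hspa1a and Hspa1b themselves correlated at 0.58 in PBS, 0.61 in mix and 0.44 in homo. These cells share a library and its depth, and weak values in sparse counts are given as a description.

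Related folding genes with at least 50 CPM in the CD8 gate were nearer to equal between homo and PBS than the pair. Across all genes compared 4.67% were lower and 3.08% higher, so a count of 0 in lists this small lies near those shares. Of 18 cytosolic co-chaperones compared, 0 were higher and 0 lower, with a median log2 ratio of -0.22, from -0.58 for Ptges3, the HSP90 partner p23, to 0.11 for Cdc37, which loads kinases onto HSP90. The factor Hsf1 stood at 31.1 CPM in PBS and 30.2 CPM in homo (-0.04, -0.15 to 0.07), under the 50 CPM minimum. Also under it, the small heat shock protein gene Hspb1, named here after its values were seen, stood at 5.11 CPM in PBS and 0.469 CPM in homo (-3.45, -4.12 to -2.83), further apart than the pair. Of 12 subunits of the cytosolic chaperonin and prefoldin 0 were higher and 0 lower, with a median of -0.13, from -0.38 for Pfdn2 to 0.13 for Vbp1.

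Of 4 further mitochondrial folding genes, 1 was higher, Dnajc15 at 427 against 263 CPM (0.70), and 1 lower, the mitochondrial HSP70 Hspa9 at 39.7 against 68.9 CPM (-0.79). As above, 3.08% of all genes were higher and 4.67% lower. Of 16 folding and stress genes of the endoplasmic reticulum 0 were higher and 2 lower, with a median of -0.28, from -1.02 for Ppp1r15a to 0.15 for Sdf2l1. Of 11 reference genes 0 were higher and 1 lower, the glycolytic enzyme Gapdh (-0.82), and the highest was the ribosomal protein gene Rplp0 (0.22). In mix over PBS 0 genes of these 5 lists, or of the immediate early list, in the CD8 gate were 1.5-fold apart. Across all 2946 genes compared 0.916% were, so a count of 0 lies near that share.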

How the data were processed

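The values were raw UMI counts per gene and barcode as the authors deposited them, from Cell Ranger 7.1.0, per the file headers; per the submitters' processing notes the tools were Cell Ranger 2.1.1 and Seurat 4.1.0 on mm39. A barcode was kept if it held 500 or more genes and 1000 or more UMIs, with mitochondrial UMIs below 10%. Scrublet's own threshold marked almost no cells, so the highest scores were removed at 0.8% per 1000 kept barcodes (scanpy 1.11.5). Gates needed a UMI of Cd3d, Cd3e or Cd3g and used a minimum of 1 UMI of the gating gene. UMIs were summed per gate and scaled to CPM in Python 3.11.15 with numpy 2.4.6, scipy 1.17.1 and pandas 2.3.3. Levels have exact Poisson intervals, ratios exact conditional binomial ones and shares exact Clopper-Pearson ones, at 95%. The ratio intervals were tested on simulated Poisson counts at whole-library depth. Such counts lack the uneven spread over cells, so that test cannot show the coverage in these data. Depth per gate ran from 275746 UMIs in the CD4 gate of homo to 51195259 in its CD8 gate.

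All 10 chaperones were named. From each other list the genes with the highest and lowest ratio of homo over PBS in the CD8 gate were named, with Hsf1 and the 10 other genes most like the Hspa1a and Hspa1b sum. Of these genes, 1 is not reported here. The members and lists were chosen with earlier results of these data known. Ddit3 was left out because its symbol stands on more than 1 gene ID. Mitochondrial limits, scaling, thinning, gates, doublets, cycling cells and fold limits were varied as alternatives.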

Additional observations from a re-analysis of the deposited data

Results flagged for a closer look

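Ratios of opposite sign in different gates were found for Hspa1a, and these differences were not tested. In each pair 1 of the ratios has a counting interval that includes 0. Its log2 ratio of homo over PBS was -1.74 in the CD8 gate and 0.037 in the CD4 gate (-0.62 to 0.65), which held 70 cells in homo and where the sign was negative in 2 of 13 other settings, down to -0.49. The CD4 value of 0.037 also stood against -2.07 in the Foxp3 gate. In mix over PBS Hspa1a was at 1.03 in the CD4 gate and -0.12 in the Foxp3 gate (-0.44 to 0.19).

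Signals above PBS were also found in mix, in kept cells outside the gates. In 232 cells of mix with a CD8 gene as well as Foxp3, Hspa1a stood at 116 CPM, against 71.2 CPM in 227 such cells of PBS. Hspa1b lay closer there, at 108 CPM (93.2 to 124) in mix against 95.6 CPM (81.2 to 112) in PBS, with overlapping counting intervals. In cells with no CD8 gene, Cd4 or Foxp3, 535 in mix and 556 in PBS, Hspa1a stood at 282 CPM for mix against 138 CPM for PBS. In those cells Hspa1b stood at 366 against 189 CPM, and the sum of both genes at 648 against 327 CPM. The homo library lay below PBS in each of these classes, with the sum at 72.1 CPM against 167 CPM in cells with CD8 genes and Foxp3 and at 74.8 against 327 CPM in cells with no gate gene. In cells with CD8 genes and Cd4 the sum stood at 274 CPM in PBS, 295 CPM in mix and 42.9 CPM in homo.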

How the results depend on the processing

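Of 147 alternative counts of chaperones past the limit, 130 stayed within 1.5 times the reported count and 17 did not. In the CD8 gate the exception was homo over mix, with 3 of 10 at a 2-fold limit in place of 5. In the CD4 gate homo over PBS gave 0 in place of 1 with totals without mitochondrial, ribosomal protein and chaperone genes and at a 2-fold limit. It gave 2 with the mean of per-cell CPM, with gates at 2 UMIs and without cycling cells, and 3 in cells thinned to 2000 UMIs and without cells with a Fos, Jun or Egr1 UMI, where 1 of the 3, Hspa1b, was higher (0.98). There mix over PBS and homo over mix each gave 1 in place of 3, both at a 2-fold limit and without Fos, Jun or Egr1 cells. In the Foxp3 gate homo over PBS gave 1 in place of 2 with Hspa1a and Hspa1b summed and without Fos, Jun or Egr1 cells. Mix over PBS gave 3 in place of 0 without those cells, and homo over mix gave 5 without them and 1 at a 2-fold limit, in place of 3. Of 1198 alternative single ratios 1038 lay within the counting interval of the reported ratio, and 110 of those outside it were in the CD8 gate, where intervals are narrowest. The sign changed in 41, of which 25 were in the CD4, 15 in the Foxp3 and 1 in the CD8 gate, and 40 belonged to ratios reported as under 1.5-fold. The other was Hspa1b: in homo over mix in the CD4 gate was 0.11 without Fos, Jun or Egr1 cells, in place of -1.16. Hspa1a had 0 UMIs in the Foxp3 gate of homo without them, so its 2 ratios there could not be given. Leaving out those cells, and a mitochondrial limit of 2%, were chosen after seeing the data. Without those cells the CD4 and Foxp3 gates of homo held 27 and 45 cells. Shares of all genes are not given for alternatives other than the 2-fold limit. A 2-fold limit and the summing of the pair lower a count by construction, and for the other changes the cause was not tested. No paired analysis was possible because each group had 1 library. Depth limits the CD4 and Foxp3 gates of homo most, with 70 and 124 cells.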
